A study of Caenorhabditis elegans with 2 samples.

Results

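The regions described here are the places of the worm genome, next to genes for transfer RNA, where a chromatin immunoprecipitation of NHR-84 gave a listed region. They were chosen by position alone: a region of the pooled list belonged if its summit, the deposited centre point, lay within 500 bp of a gene annotated as tRNA in Ensembl (WBcel235, the assembly of build ce11). Of the 30000 pooled regions, 277 (0.923%) met this rule, and they lay within reach of 290 of the 612 nuclear tRNA genes. By its label the pooled list holds peaks and background together, so a region in it need not be a peak. The data are ChIP-seq of whole L1 larvae of strain OP357, which carries the allele unc-119(tm4063) on III and the insertion wgIs357, a transgene that expresses NHR-84 fused at its C-terminus to GFP and FLAG. There was 1 group with 2 biological replicates of mixed sex, so there was no other condition to compare with, and no test across samples was possible. A control library, untagged animals and read counts were not analysed here. Whole animals were used, so all cell types are pooled, and the antibody is labelled only by its target.

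NHR-84 is a nuclear hormone receptor, one of a large family of transcription factors with a zinc finger DNA-binding domain that in many members reads words related to AGGTCA. tRNA genes are short and are transcribed by RNA polymerase III, not by polymerase II. Their promoter lies inside the gene: an A box near the 5' end and a B box near the 3' end are bound by the factor TFIIIC, which then brings in TFIIIB and the polymerase. Such genes are open and heavily transcribed in growing animals, and in C. elegans a large part of them sits on X.

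The genes next to several of the highest regions are printed first, since B box words are searched for around the summits below. Sequences are from the RefSeq genome of WBcel235, 5' to 3' on the strand of the tRNA gene, with a short B box word (GTTCGANNC) in capitals. C18A11.t2 (tRNA-Arg, chrX:8036685-8036757, minus strand) lies next to the highest region, T23F1.t1 (tRNA-Lys, chrV:15465086-15465158, plus strand) and Y59E1B.t2 (tRNA-Pro, chrX:1880817-1880888, minus strand) each hold a summit inside the gene, and C14B9.t2 (chrIII:8109603-8109724, plus strand) and ZK822.t1 (chrIV:11928478-11928596, minus strand) are long tRNA-Leu genes whose regions are compared below.
C18A11.t2: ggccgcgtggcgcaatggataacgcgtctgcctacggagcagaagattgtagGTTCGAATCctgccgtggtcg
T23F1.t1: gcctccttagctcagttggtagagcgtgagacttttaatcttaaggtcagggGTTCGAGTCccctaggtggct
Y59E1B.t2: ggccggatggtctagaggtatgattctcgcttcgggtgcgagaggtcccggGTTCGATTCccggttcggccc
C14B9.t2: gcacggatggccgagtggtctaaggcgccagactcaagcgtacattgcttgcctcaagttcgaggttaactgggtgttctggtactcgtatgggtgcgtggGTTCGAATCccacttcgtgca
ZK822.t1: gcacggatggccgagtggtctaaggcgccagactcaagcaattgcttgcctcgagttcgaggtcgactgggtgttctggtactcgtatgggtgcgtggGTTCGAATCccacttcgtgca
All 5 hold the word once. Of the 612 nuclear tRNA genes, 441 (72.1%) hold it on their own strand.

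The highest region was the only member in the list left by the step on irreproducible discovery rate (IDR). That step keeps regions ranked alike between the lists it compares, and its settings are not stated. The region lay at chrX:8036302-8036605 with a pooled signal of 95.5 (the caller's own value, on a scale that is not stated) and rank 13. In each replicate's own list its signal was 26.1 (rank 181) in replicate 1 and 64.6 (rank 6) in replicate 2, and signals of different lists are not on 1 scale. The summit stood 231 bp past the 3' end of the tRNA-Arg gene C18A11.t2, in intergenic sequence, and the nearest coding start, that of the sex determination gene xol-1, was 4859 bp away. The plus-strand sequence from 100 bp before to 100 bp after this summit is shown for the words CCTGCG and CGCGCA. It holds them and their reverse complements in 2 stretches (in capitals), and no tRNA sequence. The stretches are CCTGCGCG and its reverse complement, CGCGCAGG. In each stretch 1 word overlaps the reverse complement of the other, so these are not separate matches.
chrX:8036354-8036554: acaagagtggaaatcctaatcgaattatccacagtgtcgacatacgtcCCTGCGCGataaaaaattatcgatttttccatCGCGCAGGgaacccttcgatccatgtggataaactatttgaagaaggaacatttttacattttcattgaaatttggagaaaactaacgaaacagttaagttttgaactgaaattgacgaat
This region is therefore next to a tRNA gene by distance, but its summit window of 150 bp either side does not reach that gene.

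**Figure D1:**
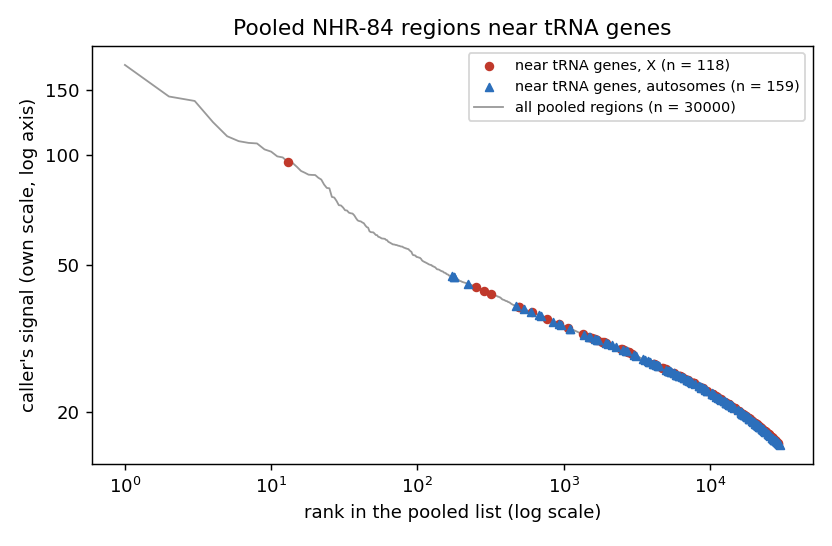
Pooled signal (vertical, log axis) against rank in the pooled list (horizontal, log scale) for the regions near tRNA genes on X (circles) and on autosomes (triangles), with all 30000 pooled regions as a line. A single member, at rank 13 and signal 95.5, stands apart, and the other 276 begin at rank 173.

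No other member reached the signals of the IDR list, whose lowest was 52.0. The remaining 276 members had pooled signals of at most 46.6. Each of these 276 had a deposited q-value above 0.6, whereas C18A11.t2's region had 0.0182. For comparison, the 106 IDR peaks had q-values between 0.0182 and 0.431. The median q-value was 0.811 for the members and 0.801 over all pooled regions, so high q-values were common to the whole list.

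Members stood somewhat higher in the ranking than the pooled list as a whole. Their median rank was 11376, against 15000.5 for all regions, and their median signal was 21.8, against 20.4. The share among the 1000 highest signals was 7.58% of members (21 of 277, 95% Wilson interval 5.01 to 11.3), against 3.33% of all pooled regions. For the IDR list the share was 0.361% of members (1 of 277) and 0.353% of all regions. Ranks 1001 to 5000 held 18.1% of members and 13.3% of all regions, while ranks 15001 to 30000 held 39.4% of members and 50% of all regions. Read the other way, members made up 0.943% of the regions at ranks 1 to 106 (1 region, Wilson interval 0.167 to 5.15), 2.54% at ranks 107 to 500, 2.00% at 501 to 1000, 1.25% at 1001 to 5000, 0.97% at 5001 to 15000 and 0.727% below that. Sequence within 500 bp of a tRNA gene was 0.571% of the genome. No chance test over regions was run, since regions are not replicates.

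The members from rank 173 downwards lay at genes of many amino acids. T15B12.t1, a gene for tRNA-Met, had its region 50 bp past the 3' end, in a coding exon of T15B12.1 (chrIII:5294777-5295080), with a pooled signal of 46.6. Its signal was 18.6 (rank 1630) in replicate 1 and 28.0 (rank 143) in replicate 2. The region upstream of rte-2, a tRNA-Glu gene, had a pooled signal of 46.4 (chrI:11978348-11978651) and signals of 26.6 (rank 166) in replicate 1 and 20.1 (rank 986) in replicate 2. T23F1.t1 held its summit 51 bp into the gene and had a signal of 46.3 (chrV:15464985-15465288), with signals of 12.8 (rank 10745) in replicate 1 and 31.8 (rank 76) in replicate 2. These 3 regions had nearly equal pooled signals, and in the replicates only that of rte-2 was among the 1000 highest of both.

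Y82E9BR.t1 (tRNA-Gly, chrIII:1424241-1424544, pooled signal 44.6) had its summit 98 bp upstream of the gene, within an intron of lelo-2, and ranked 2762 and 1531 in replicates 1 and 2. Y59E1B.t2 (tRNA-Pro, chrX:1880719-1881022, 43.6) ranked 176 and 5130. T01B4.t1 (tRNA-Val, chrX:16298123-16298426, 42.5) belonged to a cluster of 4 tRNA genes and ranked 2259 and 433. R01H5.t1 (tRNA-Thr, chrX:12563677-12563980, 41.7) held its summit 41 bp into the gene and ranked 74 in replicate 1, the highest of any member there, and 1503 in replicate 2. In all 4 the replicates differed in rank, in either direction.

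Several of the next regions had their summit inside a tRNA gene and within an intron of a coding gene. In the 4 below, in the order given, it stood 66, 4, 47 and 49 bp into the tRNA gene. F33G12.t1 (tRNA-Ile, chrII:5032685-5032988, pooled signal 38.8) lay in an intron of F33G12.3, ranked 103 in replicate 1 and had no summit within 100 bp in replicate 2. F38G1.t2 (tRNA-Asp, chrX:489783-490086, 38.5) lay in an intron of egl-17, which encodes a fibroblast growth factor, and ranked 1717 and 852. C27A2.t1 (tRNA-Ile, chrII:5057321-5057624, 37.9) lay in an intron of C27A2.12, ranked 3630 in replicate 1 and was not found in replicate 2. H08J11.t3 (tRNA-Gln, chrX:9091427-9091730, 34.6) lay in an intron of ajm-1, which encodes a protein of apical junctions, and ranked 5091 and 6978. None of these 4 was in the upper 1000 of both replicates.

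The 2 long tRNA-Leu genes printed above had similar values. C14B9.t2 (region chrIII:8109555-8109858, in an intron of C14B9.3) had a pooled signal of 37.3, rank 22983 in replicate 1 and rank 420 in replicate 2. Its summit stood 104 bp into the tRNA gene. ZK822.t1 (region chrIV:11928486-11928789, 42 bp upstream of the gene) had a signal of 36.4, rank 15862 in replicate 1 and rank 546 in replicate 2. Both stood high in replicate 2 and low in replicate 1. Neither gene has an identical copy in the genome, though their first 39 and last 54 bases are the same. How reads from like sequences were placed is not stated in the labels or file records. Another tRNA-Leu gene, C04E7.t1 (chrX:353222-353525, signal 38.5), had its region at a coding promoter, 245 bp from the start of sor-3, and ranked 2384 and 2590.

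The other members among the 20 highest were C52G5.t1 (tRNA-Val, pooled signal 37.3), rte-4 (tRNA-Glu, 36.5), F59C12.t2 (tRNA-Asp, 35.8), Y73B6BL.t1 (tRNA-Val, 35.1) and Y65A5A.t1 (tRNA-Ala, 34.6). The region at rte-4 was 139 bp from the coding start of ZK622.1, and that at Y73B6BL.t1 lay in a coding exon of tyr-6, a tyrosinase gene. Y65A5A.t1 ranked 1308 in replicate 1 and 1182 in replicate 2. At the distance limit, the last members inside it were at 486 and 492 bp (F47E1.t3, signal 17.4, and F37A4.t1, 16.4), and the first regions outside it at 503 and 506 bp (T22F3.t3, 19.1, and C04A11.t1, 25.03).

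Summits were densest inside the tRNA genes themselves. There were 12.9 pooled summits per 10 kb of tRNA gene sequence (59 summits), against 2.99 per 10 kb over the whole genome. The density was 6.22 at 1 to 100 bp from a gene and 4.62 at 101 to 200 bp. From 201 bp outwards it was between 3.11 and 3.19 in each class up to 2000 bp, close to the genome value. In these classes the replicates gave the same order: 13.7 in replicate 1 and 8.51 in replicate 2 inside the genes, 6.05 and 4.62 at 1 to 100 bp, and 4.98 and 3.97 at 101 to 200 bp, against 2.99 over the genome in each list. At 301 to 400 bp the replicates had 4.84 and 4.44, higher than the pooled 3.13. Inside tRNA genes that have no identical copy the pooled density was 11.7.

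**Figure D2:**
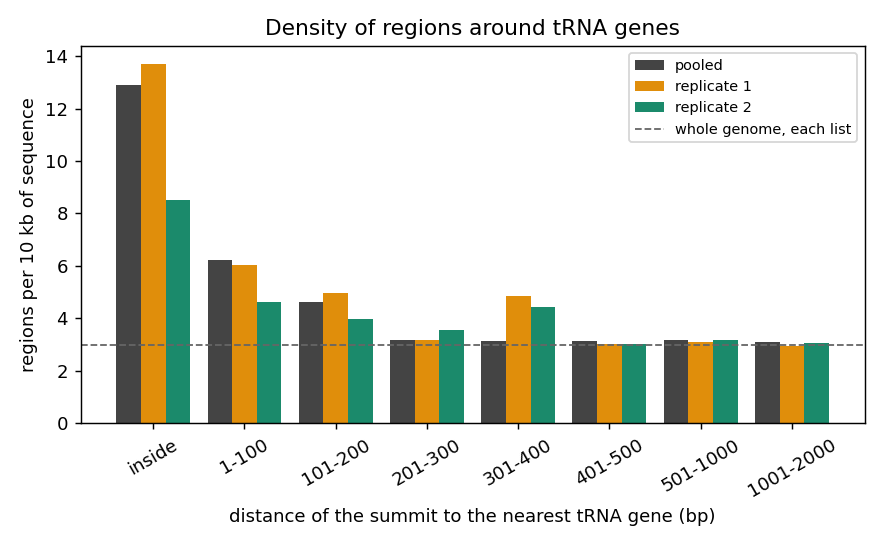
Regions per 10 kb of sequence (vertical) by distance of the summit to the nearest tRNA gene in bp (horizontal), for the pooled list and each replicate's list; the dashed line is the density over the whole genome. Bars inside the genes stand at 12.9, 13.7 and 8.51, and bars beyond 400 bp lie near the line at 2.99.

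tRNA genes are rich in G and C (median 58.3% over the 612 genes), and so were the summits inside them. GC content within 50 bp of the summit had a median of 50.5% for the 59 members inside a gene, 38.1% for the 114 upstream, 36.6% for the 104 downstream and 36.6% over all pooled regions. At matched local GC, where GC was from 45 to below 55%, there were 13.3 summits per 10 kb inside tRNA genes and 3.31 in sequence over 500 bp from any tRNA gene. In the same GC class the replicates had 14.3 and 7.85 inside tRNA genes, against 3.38 and 3.34 far from them. Where GC was from 35 to below 45%, the pooled values were 8.08 (7 summits) and 3.46. The part of GC content in these densities was not tested beyond these classes.

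Members inside a gene also ranked higher than those beside one. Their median pooled rank was 8410, against 12462.5 upstream and 12769 downstream. Of the 59 inside, 8 (13.6%, Wilson interval 7.03 to 24.5) were among the 1000 highest, against 7 of 114 upstream (6.14%, 3.01 to 12.1) and 6 of 104 downstream (5.77%, 2.67 to 12), so the intervals overlap. Upstream and downstream sides held like numbers. Counted in bins of 50 bp along the strand of the tRNA gene, the first 50 bp of the gene held the most summits, 44 pooled, 46 in replicate 1 and 27 in replicate 2, while the next bin held 17, 21 and 15. Most tRNA genes end within that next bin, so part of it is sequence beyond the gene. Density per base of gene was not computed by bin.

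**Figure D3:**
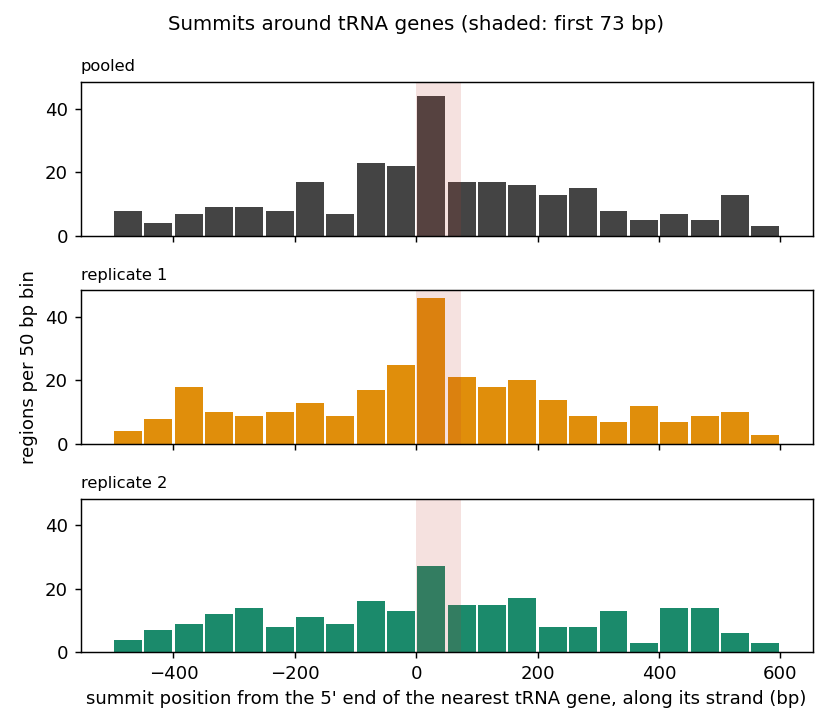
Number of regions per 50 bp bin (vertical) by position of the summit from the 5' end of the nearest tRNA gene, along its strand, in bp (horizontal), for the pooled list and each replicate; the shading marks the first stretch of a typical gene. The bin that begins at the 5' end is the highest in each list, at 44, 46 and 27 regions.

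B box words were found in the members mostly where the window around the summit reached the tRNA gene. The B box was searched as GGTTCGA, any base, then TCC, on both strands, within 150 bp of the summit. It was present in 61 members (22.0%), against 0.383% of all pooled regions. Where the window reached the tRNA gene it was present in 59 of 152 members (38.8%, Wilson interval 31.4 to 46.7). Of the 612 nuclear tRNA genes, 265 (43.3%) hold this word on their own strand, a share within that interval. Where the window did not reach the gene, 2 of 125 members had it. The shorter word GTTCGANNC, which overlaps it, was in 35.4% of members and 2.67% of all regions. An A box word, TGGCNNAGT, matched 61 of the 612 tRNA genes.

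The nuclear receptor word AGGTCA lay within 150 bp of the summit in 33 members (11.9%), against 7.73% of all pooled regions. In 12 members a copy lay within a tRNA gene, as it does in T23F1.t1, and 47 of the 612 tRNA genes (7.68%) hold it. In 22 members (7.94%) a copy lay outside tRNA genes, a share near that of all regions. CCTGCG was in 29 members (10.5%, against 3.22% of all regions). It lay within a tRNA gene in 18 of them and outside one in 11 (3.97%), and 80 tRNA genes (13.1%) hold it. CGCGCA, which no nuclear tRNA gene holds, was in 11 members (3.97%, against 4.35%). A match to these letters is a description of sequence and not of binding.

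X held 118 of the members (42.6%, Wilson interval 36.9 to 48.5), against 17.3% of all pooled regions. X also holds 276 of the 612 nuclear tRNA genes (45.1%). Per tRNA gene the shares had overlapping intervals: 129 of 276 X genes (46.7%, 40.9 to 52.6) and 161 of 336 autosomal genes (47.9%, 42.6 to 53.3) had a region within 500 bp. Per length of sequence within 500 bp of a tRNA gene, X and the autosomes both had 4.84 pooled summits per 10 kb. In replicate 1 the densities were 5.17 on X and 5.27 on the autosomes, and in replicate 2 they were 3.94 and 4.60.

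In rank the members on X (13 to 29273) and on the autosomes (173 to 29928) overlapped. Among the 1000 highest were 9 of 118 X members (7.63%, Wilson interval 4.06 to 13.9) and 12 of 159 autosomal members (7.55%, 4.37 to 12.7), against 2.95% of all X regions and 3.41% of all autosomal regions. The median pooled rank was 12981.5 on X and 10624 on the autosomes. Summits inside the tRNA gene made up 25.4% of X members and 18.2% of autosomal ones. Of the single autosomes, III had the largest share of tRNA genes with a region, 36 of 64 (56.2%, 44.1 to 67.7), and V the smallest, 34 of 78 (43.6%, 33.1 to 54.6), and these intervals overlap too.

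**Figure D4:**
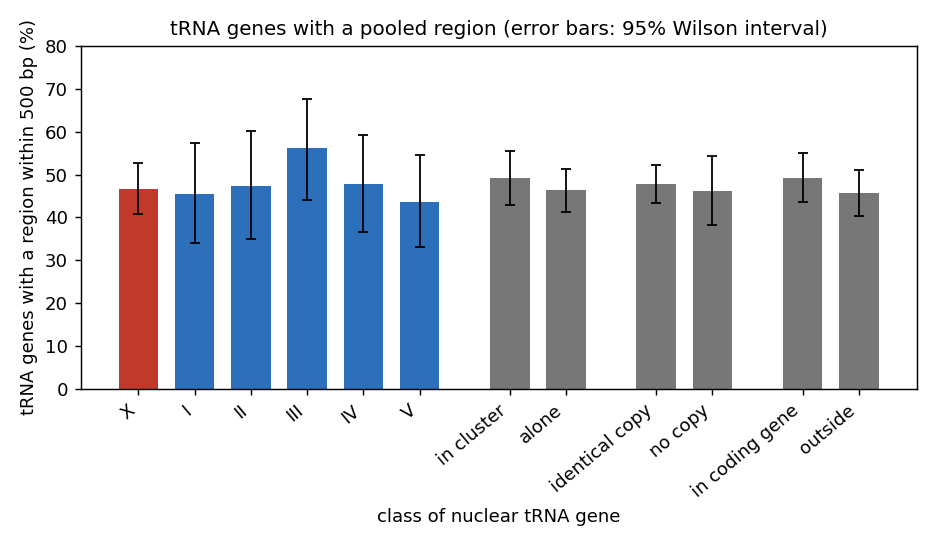
Percent of nuclear tRNA genes with a pooled region within 500 bp (vertical) by chromosome, by cluster, by presence of an identical copy and by position within a coding gene (horizontal); error bars are 95% Wilson intervals. Every class lies between 43.6% and 56.2%, and the error bars of the classes overlap.

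Genes in clusters and genes that stand alone had a region at shares with overlapping intervals. With tRNA genes joined when at most 1000 bp apart, 236 of the 612 genes (38.6%) formed 100 clusters of 2 to 6 genes, of which 54 were on X. Of the members, 81 (29.2%) had a clustered gene as the nearest. Of the clustered genes 116 (49.2%, Wilson interval 42.8 to 55.5) had a region within 500 bp, against 174 of the 376 genes that stand alone (46.3%, 41.3 to 51.3). A region can serve several genes of a cluster, so the count per gene and the count per region need not match. Of the 100 clusters, 62 had a member and 16 had more than 1.

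No cluster held more than 1 region among the 1000 highest. The largest number in a cluster was 3 members, found in 3 clusters. The first, of 4 genes around Y65A5A.t1 (tRNA-Ala, tRNA-His and tRNA-Val, chrIV:16398384-16400967), had members at ranks 935, 6969 and 13641. The second, 3 tRNA-Pro genes around C16B8.t1 (chrX:3969556-3970336), had ranks 1888, 2764 and 10988. The third, C29F7.t2 and F02D10.t3 (tRNA-Ser and tRNA-Leu, chrX:13442643-13443504), had ranks 13892, 25290 and 25899. Only the first of these clusters reached the 1000 highest, with 1 of its members.

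Among clusters with 2 members the highest signals were in the tRNA-Glu cluster around rte-2 and Y53C10A.t1 (chrI:11977191-11978835, ranks 178 and 14252) and in the pair M02F4.t2 and M02F4.t1 (tRNA-Glu and tRNA-Gly, chrX:3035976-3036235, ranks 1068 and 7098). The region at M02F4.t1 ranked 87 in replicate 1 and had no summit within 100 bp in replicate 2. C02B4.t2, a tRNA-Tyr gene inside nhr-17, was the only tRNA gene with 3 regions within 500 bp. Their pooled signals were 31.4, 24.5 and 17.6. Each region overlapped the next (chrX:12664849-12665152, chrX:12665051-12665354 and chrX:12665255-12665558), so the 3 form 1 unbroken stretch. The first ranked 190 in replicate 2 and was not found in replicate 1. The next ranked 11463 in replicate 2 and was not found in replicate 1, while the last ranked 6044 in replicate 1 and was not found in replicate 2. The replicates thus had summits at different positions around C02B4.t2.

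Shares by sequence family and by amino acid ranged widely, with few genes behind most of them. The 612 nuclear genes have 200 distinct sequences, and 143 have no identical copy. A region lay within 500 bp of 224 of the 469 genes with an identical copy (47.8%, Wilson interval 43.3 to 52.3) and of 66 of the 143 without (46.2%, 38.2 to 54.3). In the 11 families of 15 or more identical genes the share ran from 40% (a tRNA-Glu family, 6 of 15) to 64% (tRNA-Lys, 16 of 25). The largest family, of tRNA-Gly, had 14 of 29. Over the 20 amino acids with 10 or more genes the share ran from 30.8% for tRNA-Cys (4 of 13) to 59.1% for tRNA-Arg (26 of 44), with wide intervals. The single tRNA-Sec gene, K11H12.t1, which carries selenocysteine, had 2 regions (ranks 3029 and 21698).

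Of the members, 129 summits (46.6%) were intergenic, 84 (30.3%) in introns and 57 (20.6%) in coding exons of protein-coding genes. These classes were set by protein-coding genes alone, so the 59 summits inside a tRNA gene are counted among them. The shares of these classes over all pooled regions were not computed, so they describe the members alone. At a coding promoter, taken as the 500 bp before a start and the 100 bp after it, lay 32 members (11.6%, Wilson interval 8.3 to 15.9), against 17.2% of all pooled regions. Nuclear tRNA genes within a coding gene had a region in 143 of 290 cases (49.3%) and those outside in 147 of 322 (45.7%). A position on the strand of the coding gene or against it gave 49.1% and 49.6%.

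Each replicate's own list also had regions near tRNA genes among its highest. Replicate 1's own list had 299 regions within 500 bp of a tRNA gene and replicate 2's list had 247. Among the 1000 highest of the list were 22 of those in replicate 1 (7.36%, Wilson interval 4.91 to 10.9) and 25 of those in replicate 2 (10.1%, 6.95 to 14.5), against 3.33% of each whole list by construction. Of the 308 tRNA genes with a replicate 1 region, 50% also had a replicate 2 region within 500 bp. Of the 304 without one, 32.6% had a replicate 2 region.

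Of the 277 pooled members, 171 (61.7%, against 52.6% of all pooled regions) had a summit within 100 bp in replicate 1 and 130 (46.9%, against 52.6%) in replicate 2. Both replicates held 66 (23.8%, Wilson interval 19.2 to 29.2), against 20.1% of all pooled regions, and neither held 42 (15.2%, against 14.9%). The pooled list is made from the reads of both replicates, so its members are not independent of either list. Found in replicate 1 alone were 105, with a median pooled rank of 13583, and in replicate 2 alone 64, with 13460. The 66 found in both had a median pooled rank of 2473.5, and the 42 found in neither had 21061.5. The same medians over all pooled regions were not computed, so this order describes the members alone.

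Few members stood high in both replicates. The 1000 highest of replicate 1 held 19 members (6.86%, against 3.07% of pooled regions), those of replicate 2 held 23 (8.3%, against 3.05%), and only the regions at C18A11.t2 and rte-2 were in both (0.722%, against 0.437%). Over the 66 members found in both lists Spearman's rho of the ranks was 0.14, and over all 6044 such pooled regions it was 0.15. These correlations are across regions of the same libraries and are given as a description. The depth of the libraries is unknown, so what it contributes to a region missing from 1 replicate was not tested.

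**Figure D5:**
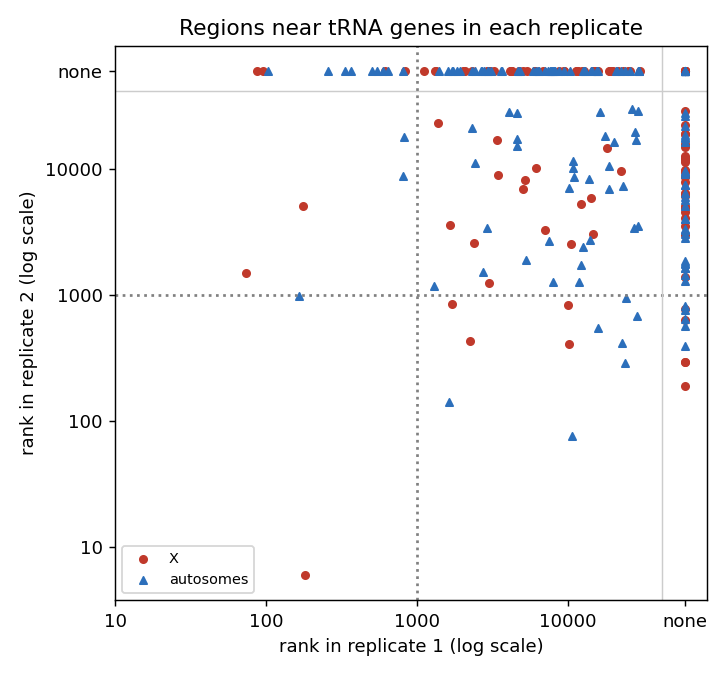
Rank in replicate 2 (vertical, log scale) against rank in replicate 1 (horizontal, log scale) for the 277 members on X (circles) and on autosomes (triangles); "none" marks members with no summit within 100 bp in that list, and dotted lines mark rank 1000. The lower left corner, below rank 1000 in both, holds the 2 regions at C18A11.t2 and rte-2, and 42 members are at "none" in both.

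Other short RNA genes and the polymerase III machinery were set beside the members. Of the members 7.58% (Wilson interval 5.01 to 11.3) were among the 1000 highest, against 13.5% (9.41 to 19.1) of 192 regions within 500 bp of snoRNA genes and 23.5% (14 to 36.8) of 51 regions near snRNA genes. These differences were not tested. Of the 16 annotated 5S rRNA genes, which polymerase III also transcribes, 0 had a pooled region, which allows a share of up to 18.8%. Genes for the spliceosomal U6 RNA are not named in the annotation. Of 12 listed genes for the polymerase III machinery 9 matched by symbol, and 3 had a region at their promoter (33.3%, Wilson interval 12.1 to 64.6), against 25.1% of all 19973 nuclear coding genes, a share within that interval. They were rpc-1, for a subunit of RNA polymerase III (rank 7075), tftc-5, for a TFIIIC subunit (3895), and mafr-1, for the repressor MAF1 (5612). None of these was among the 1000 highest (0 of 9 allows a share of up to 33.3%), against 2.01% of all coding genes with such a region at the promoter. The region at tftc-5 was found in both replicates and each of the others in 1.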

How the data were processed

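Whole L1 larvae with tagged NHR-84 were assayed by ChIP-seq in 2 biological replicates of 1 group. Per the deposited file records, each narrowPeak list on ce11 was made from 1 replicate or from both pooled, with a control alignment as a parent. The IDR list was made from these lists. The authors deposited a signal for each region, on a scale that is not stated, and a −log10 q-value. The sources used here name no aligner, caller or settings. The lists hold no read counts, so depth is unknown.

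Regions were ranked by signal within a list. Summits were set against Ensembl 115 genes, and names and amino acids came from RefSeq for 612 and 607 of the nuclear tRNA genes. The 22 mitochondrial tRNA genes were left out, since the lists hold no mitochondrial region. Summits of 2 lists were matched within 100 bp. Density is summits per 10 kb of sequence at that distance. Wilson intervals (95%), and limits for a count of 0 (set at 3 counts), reflect counting error over regions or genes alone. No chance test was made. Alternatives were other distances, words and rank limits, and each replicate alone. The annotation step was tested on simulated data. K11H12.t1 was named after its values were seen. The lists on ce10 were not used. The members and lists were chosen with earlier results of these data known. Named regions are the 20 of highest signal, those among the 1000 highest of both replicates, the 5 clusters with most members, the edges of the rule and the tRNA gene with most regions. Python 3.11.15, numpy 2.4.6, pandas 2.3.3 and matplotlib 3.10.9 were used.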

Additional observations from a re-analysis of the deposited data

How the results depend on the processing

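Of 81 alternative values over 14 results, 53 stayed within 1.5 times a main count or density, within the 95% Wilson interval of a main share, or, for the median rank, within the SD of 819 between the 2 replicate lists. Most of the other 28 move by construction with the distance, the word or the rank limit. With a distance of 200 and 1000 bp there were 183 and 424 regions, the share of tRNA genes with a region was 31.9% and 59.4% on X and 31.8% and 65.5% on the autosomes, summits inside the gene were 32.2% and 13.9% of regions, and the B box word was in 32.8% and 14.4%. At 200 bp 0% of regions were in the upper 1000 of both replicates, and at 1000 bp the median rank was 12890.5. With tRNA genes without an identical copy there were 71 regions and 66 genes. Rank limits of 500 and 2000 gave 3.97% and 14.1% of members. Gaps of 500 and 5000 bp put 19.5% and 44.4% of members in clusters. Matching summits within 50 and 200 bp found 16.6% and 35.7% in both replicates. The shorter B box word was in 35.4% of members, and a window of 50 bp either side gave 10.5%. A promoter of 1000 bp before to 200 bp after a start held 24.9% of members.

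Leaving out 1 replicate gave 247 to 299 regions and 253 to 308 tRNA genes with a region. The share in the upper 1000 was 7.36% to 10.1%, the median rank 9798 to 10956, and the share on X 38.9% to 42.1%. The share of tRNA genes with a region was 38.8% to 50.7% on X and 43.5% to 50% on the autosomes. Clusters held 30% to 30.4%, summits inside the gene were 15.8% to 21.1%, the B box word 17.4% to 19.7%, and coding promoters 12.6% to 15.7%. The density inside tRNA genes was 8.51 to 13.7 per 10 kb, the lower value without replicate 1. Alternatives for this density were chosen after seeing the data, and the cause was not tested. Without replicate 1, the median rank (9798) and the share of X tRNA genes with a region (38.8%) moved beyond the limits given above. So did summits inside the gene (15.8%), the B box word (17.4%) and the density. Leaving out members at coding promoters gave no share at coding promoters. No paired analysis was possible because both samples belong to 1 group. Without read counts, the limits set by depth were not tested.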
